A study of Danio rerio with 6 samples.

Results

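Zebrafish carry 2 copies each of the genes for the stress transcription factors Atf4 and Atf5, and the 4 copies are described here across the 6 conditions of a study of embryos that lack threonyl-tRNA synthetase. The genes were found by their symbols, atf4a (ENSDARG00000039515), atf4b (ENSDARG00000038141), atf5a (ENSDARG00000068096) and atf5b (ENSDARG00000077785). Each had 1 row in every count table, and together they are 4 of the 34326 genes listed. All 4 were among the 19194 genes that averaged 1 CPM (1 read of the gene in every 1000000 reads counted) or more over the libraries, which serve below as the background. The rule used no measured value, but the members were chosen with earlier results of these data known.

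Atf4 and Atf5 are basic leucine zipper (bZIP) factors of the CREB/ATF family. In mammals both are controlled mainly at translation: upstream reading frames in their messages hold back the main protein until a kinase phosphorylates the initiation factor eIF2alpha. Gcn2 is the kinase that responds to uncharged tRNA in the amino acid response (AAR), and Perk responds to misfolded protein in the endoplasmic reticulum as 1 branch of the unfolded protein response (UPR). Atf4 switches on genes for amino acid synthesis and uptake, and mammalian ATF5 is best known for genes of mitochondrial protein quality control. The libraries measured transcripts, so nothing below is a measure of translation or protein.

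The tars-/- embryos were homozygous for a nonsense mutation from a chemical mutagenesis screen in tars, the gene for threonyl-tRNA synthetase, and the sibling embryos came from the same matings and are called WT in the series' design. The line was kept as heterozygotes, and the sample descriptions do not say whether siblings that carried 1 mutant copy were left out. Either a gcn2 MO or a perk MO, morpholinos that knock down the named kinase, was injected at the 1-cell stage, and the controls of both genotypes were uninjected, so no library carries a control morpholino. All embryos were kept in PTU, a pigment blocker, and taken whole at 36 hours post fertilization, and each of the 6 conditions had 1 library. No condition had a replicate, so a single comparison of 2 libraries has no test, and the genotype was tested only over the 3 injection states together. The intervals given below are exact 95% intervals that cover counting error only, and the spread between embryos of a condition is unknown.

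Total counts lay between 29949451 and 47516784 reads per library. The tars transcript had 37.3, 21.3 and 33.9 CPM in the tars-/- control, gcn2 MO and perk MO libraries, against 71.6, 68.1 and 95.9 CPM in the corresponding sibling libraries, so it was lower in every library labelled tars-/-. Of the 15 pairs of libraries, tars-/- gcn2 MO and sibling perk MO lay closest, with 67 genes 2-fold or more apart, and sibling control and sibling perk MO lay farthest apart, with 1490. Markers of 7 tissues and cell types were read in every library. The 3 neural markers (elavl3, neurod1 and gfap) summed to 412 to 727 CPM in tars-/- libraries and 350 to 863 CPM in sibling libraries. They were lowest in tars-/- gcn2 MO and sibling perk MO. The marker sums of fast muscle, embryonic red cells, endothelium, and yolk layer and liver were also lowest in those libraries, but not every marker followed its sum. In sibling perk MO, ckma (2988 CPM), gata1a (8.15 CPM) and fabp3 (323 CPM) were above sibling control (2438, 5.44 and 304 CPM). In tars-/- gcn2 MO, gata1a (7.43 CPM) and cdh5 (40.0 CPM) were above tars-/- control (5.89 and 33.4 CPM). The fast muscle sum was 7683 CPM in tars-/- gcn2 MO and 7608 CPM in sibling perk MO, against 9551 CPM in tars-/- control and 9817 CPM in sibling control. The epidermis sum was highest in sibling perk MO (19586 CPM), although krt5 was lowest there (1794 CPM). The myeloid sum was lowest in tars-/- control (59.1 CPM). In whole embryos, fewer cells of a type and less RNA per cell cannot be told apart.

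The atf4 copies were among the most abundant transcripts of these embryos, and the atf5 copies were expressed at a lower level. To compare levels between genes, the deposited FPKM values (the count divided by the gene length and the library total) were used, since the annotated lengths run from 1981 bases for atf4b and 2336 for atf5a to 2977 for atf5b and 3057 for atf4a. By mean FPKM over the 6 libraries atf4b ranked 289th at 280.3 FPKM, atf4a 333rd at 219 FPKM, atf5b 1429th at 41.7 FPKM and atf5a 2959th at 19.9 FPKM.

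For atf4a the level was 282, 232 and 269.7 FPKM in tars-/- control, gcn2 MO and perk MO, against 169, 149 and 214 FPKM in sibling control, gcn2 MO and perk MO. For atf4b it was 376, 399.7 and 334 FPKM in the 3 tars-/- libraries, against 153, 107 and 313 FPKM in the 3 sibling libraries, in the same order. The ranges of the 2 genotypes did not overlap for either copy, with all 3 tars-/- libraries above all 3 sibling libraries, as for 3.61% of the genes tested. The gap narrowed most with perk MO, where atf4b in siblings came near its level in tars-/- embryos.

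For atf5a the level was 27.6, 22.1 and 41.7 FPKM in tars-/- control, gcn2 MO and perk MO, against 6.81, 5.24 and 16.2 FPKM in the sibling libraries. For atf5b it was 67.7, 52.4 and 76.5 FPKM in the tars-/- libraries, against 10.9, 8.54 and 34.1 FPKM in the sibling libraries. Again the genotypes did not overlap, with tars-/- above sibling as in 3.61% of the genes tested. Both copies were highest in tars-/- perk MO and lowest in sibling gcn2 MO.

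**Figure D1:**
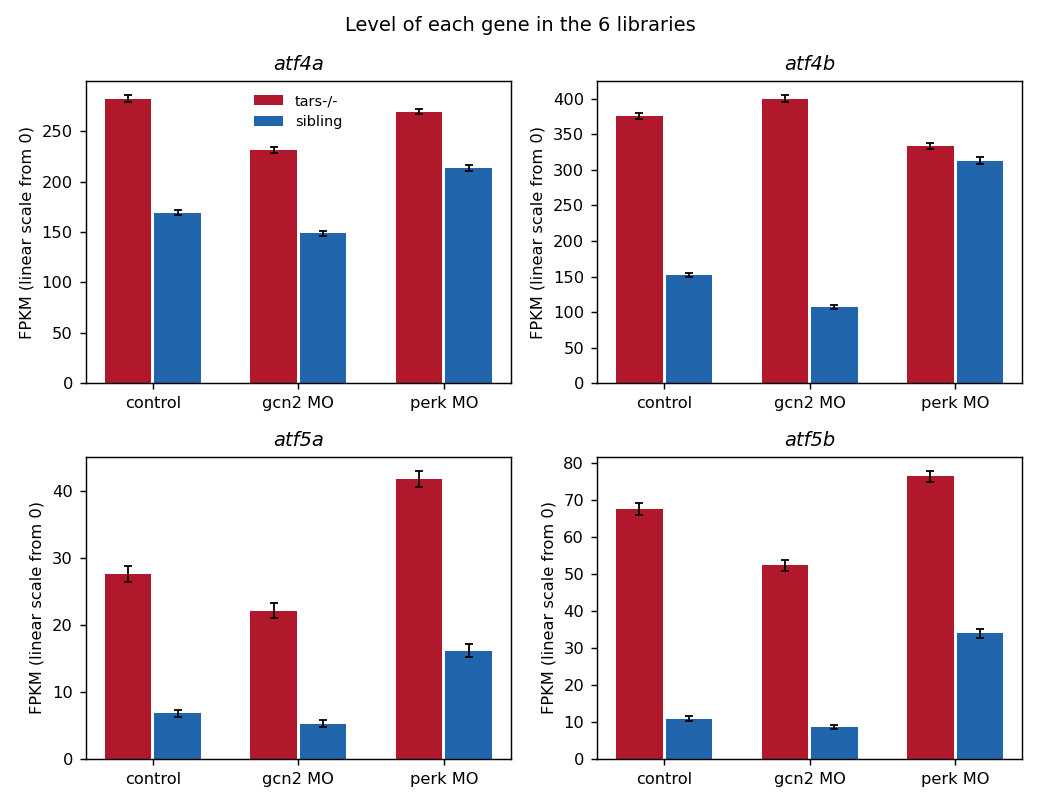
Level of atf4a, atf4b, atf5a and atf5b in FPKM (vertical axes, linear from 0) in tars-/- (red) and sibling (blue) embryos under each injection state, 1 library per bar, with 95% intervals of counting error. In all 4 panels every red bar is above every blue one, with the smallest ratio between the lowest red and the highest blue bar in atf4b, at 334 FPKM in tars-/- perk MO against 313 FPKM in sibling perk MO.

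Within the sibling libraries the 4 genes shared 1 order, perk MO above control above gcn2 MO. Within the tars-/- libraries they did not: the order was control, perk MO, gcn2 MO for atf4a, gcn2 MO, control, perk MO for atf4b, and perk MO, control, gcn2 MO for both atf5 copies. All 3 tars-/- libraries lay above all 3 sibling libraries for 3.61% of the genes tested (692 of 19194), and all 4 copies were among them. Every neighbouring pair in the order of the 6 libraries differed by more than counting error. The closest neighbours were tars-/- control over tars-/- perk MO for atf4a (ratio 1.05, 1.03 to 1.06), tars-/- gcn2 MO over tars-/- control for atf4b (1.06, 1.05 to 1.08) and tars-/- perk MO over sibling perk MO for atf4b (1.07, 1.05 to 1.09). The atf4b step between tars-/- gcn2 MO and tars-/- control turned direction with another scaling of the libraries (TMM, below), and no replicate shows whether any of these steps would return.

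The copies spanned very different ranges. From the lowest to the highest library, CPM differed 1.90-fold for atf4a and 3.73-fold for atf4b, and 7.96-fold for atf5a and 8.96-fold for atf5b. Of all genes tested, 78.6% had a smaller spread than atf4a, 97.8% than atf4b, 99.5% than atf5a and 99.6% than atf5b. Thus atf4a, the most abundant of the 4 by reads, varied least.

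The comparison of tars-/- with sibling embryos asks which transcripts go with loss of the synthetase, and it could be made within each injection state in libraries that the 3 pairs do not share. Between uninjected embryos all 4 copies were higher in tars-/-, and in each gene pair the b copy showed the larger ratio. atf5b had 201 CPM in tars-/- control and 32.4 CPM in sibling control, a 6.22-fold difference (5.86 to 6.61), and only 15 of the genes tested had a larger log2 ratio. atf5a had 64.4 CPM in tars-/- control and 15.9 CPM in sibling control (4.05-fold, 3.71 to 4.43).

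The atf4 copies differed less between the uninjected genotypes. atf4b had 745 CPM in tars-/- control and 303 CPM in sibling control (2.46-fold, 2.41 to 2.52), and atf4a had 864 CPM in tars-/- control and 518 CPM in sibling control (1.67-fold, 1.64 to 1.7). So 3 of the 4 copies were at least 2-fold higher in tars-/- embryos, on the log2(CPM + 0.5) scale used for every such call here, against 1.11% of all genes tested. The log2 ratios were 0.74 for atf4a, 1.30 for atf4b, 1.98 for atf5a and 2.62 for atf5b, and the median of all genes was -0.11. With the TMM scaling of edgeR, which brought that median to 0.005, they were 0.86, 1.42, 2.10 and 2.74.

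Between the gcn2 MO libraries, 3 of the 4 copies were again at least 2-fold higher in tars-/-, against 1.85% of genes. The level of atf4b was 792 CPM in tars-/- gcn2 MO and 212 CPM in sibling gcn2 MO, and its ratio of 3.73 (3.64 to 3.83) was the largest it reached in the 3 genotype pairs. atf5b (6.14-fold, 5.72 to 6.60) and atf5a (4.22-fold, 3.79 to 4.70) kept ratios close to those without morpholino, and atf4a was at 1.56 (1.53 to 1.59). For atf5b 10 genes had a larger log2 ratio in this pair.

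Between the perk MO libraries the differences were smaller for every copy. Both atf5 copies were still at least 2-fold higher in tars-/- perk MO, with 97.5 CPM against 37.7 CPM in sibling perk MO for atf5a (2.58-fold, 2.42 to 2.76) and 228 CPM in tars-/- perk MO against 101 CPM in sibling perk MO for atf5b (2.24-fold, 2.16 to 2.34). The atf4 copies were not, at 1.26 (1.24 to 1.28) for atf4a and 1.07 (1.05 to 1.09) for atf4b. In this pair 3.39% of genes were at least 2-fold higher in tars-/-, and 41.3% had a larger log2 ratio than atf4b. The neural marker sum differed in the same pair, at 593 CPM in tars-/- perk MO and 350 CPM in sibling perk MO, and its part in these ratios was not tested.

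Over the 3 injection states the genotype was tested in a fit with genotype and injection state as additive terms, which leaves 2 residual degrees of freedom. These hold any dependence of the genotype difference on the injection state as well as the spread between libraries. The fitted log2 ratios of tars-/- over sibling were 0.61 for atf4a, 1.14 for atf4b, 1.85 for atf5a and 2.18 for atf5b. None of the copies passed an adjusted p of 0.05 in edgeR's quasi-likelihood test (adjusted p = 0.616, 0.918, 0.183 and 0.260 in that order, Benjamini-Hochberg over 19194 genes), and neither did any other gene (0% called, with 669 genes at an unadjusted p under 0.05).

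The call depended on the tool and on the pairs used. DESeq2 called 0.901% of genes higher in tars-/- in the same design (173 of 19194), among them atf4b (adjusted p = 0.0215), atf5a (1.21e-12) and atf5b (3.5e-10), with atf4a at 0.121. Leaving out a pair left 1 residual degree of freedom. Without the perk MO pair edgeR called 0.604% of genes higher in tars-/- (116 of 19194). These included atf4b, atf5a and atf5b (adjusted p = 0.00317, 0.000562 and 0.000122). Without the gcn2 MO pair it called 1.29% higher (247 of 19194), among them atf5a and atf5b (8.35e-05 and 0.000448). Without the control pair it called no gene (235 at an unadjusted p under 0.05). For the morpholinos over both genotypes in the same edgeR fit no gene passed (1548 at an unadjusted p under 0.05 for gcn2 MO and 1535 for perk MO), and the smallest adjusted p of the copies was 0.620 for atf5a and atf5b with perk MO.

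**Figure D2:**
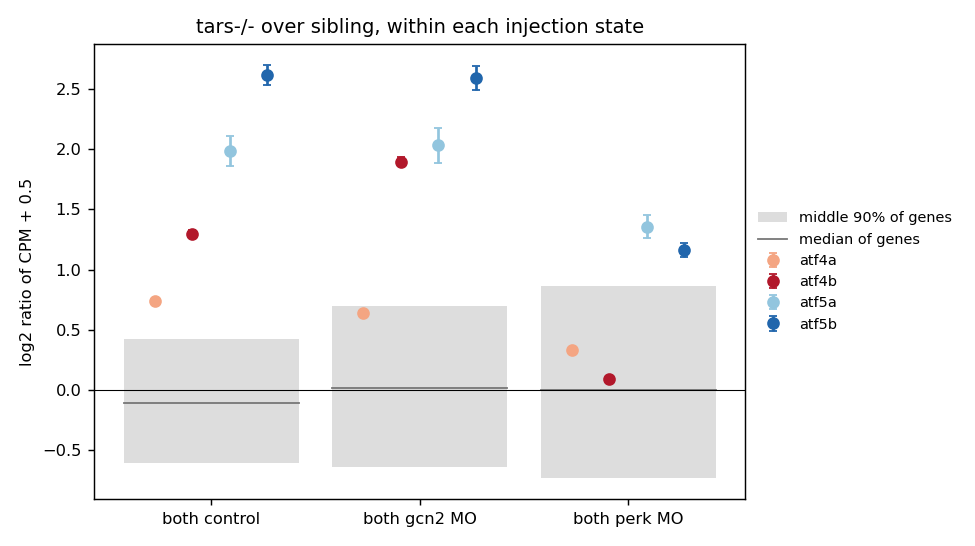
Log2 ratio of CPM + 0.5, tars-/- over sibling (vertical axis), for the 4 genes under each injection state (horizontal axis), with bars of 1.96 standard errors of counting, the median of the 19194 genes tested (line) and their middle 90% (grey). The atf5 copies (blue) lie above the grey band in all 3 pairs, and atf4b falls inside it with perk MO, at 0.09 against 1.30 in the uninjected pair and 1.90 with gcn2 MO.

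The morpholino comparisons ask how far each transcript depends on Gcn2 or Perk in either genotype, and the 2 morpholinos share the control library of their genotype. In tars-/- embryos gcn2 MO was followed by small differences in the 4 copies. The ratio of tars-/- gcn2 MO to tars-/- control was 0.820 (0.806 to 0.834) for atf4a, 0.802 (0.752 to 0.854) for atf5a and 0.775 (0.747 to 0.803) for atf5b. For atf4b it was 1.06 (1.05 to 1.08), a log2 ratio of 0.09 that became -0.023 with TMM and -0.019 with DESeq2 size factors. None of the 4 was 2-fold apart in either direction, while 5.65% of genes were, and 2.68% were at least 2-fold lower.

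The listed Atf4 targets behaved otherwise in those same libraries. Of 26 genes drawn up as targets of Atf4, 25 were measured, and 19 reached a 2-fold higher level in tars-/- control over sibling control, with a median log2 ratio of 1.72, beside 1.11% of all genes and a median of -0.11 over them. In tars-/- gcn2 MO against tars-/- control, 18 of the 25 were at least 2-fold lower, with a median of -1.35, beside 2.68% and a median of 0.09 over all genes. The neural markers were also lower there, with a sum of 412 CPM in tars-/- gcn2 MO and 727 CPM in tars-/- control, and their part in these values was not tested. The list overlaps genes the study itself chose as AAR genes, so its direction is no independent evidence.

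The examples named from that list are the 3 genes with its largest ratios of tars-/- control to sibling control. That choice rests on the tars-/- control level, to which their gcn2 MO levels are compared here. Their drop is therefore no measure of the contrast between the whole list and the atf4 copies. stc2a, for the secreted hormone stanniocalcin, had 155, 30.4 and 129 CPM in tars-/- control, gcn2 MO and perk MO, against 11.6, 11.9 and 16.2 CPM in the sibling libraries. bcat1, which acts on branched-chain amino acids, had 71.7, 17.5 and 76.7 CPM in tars-/- libraries, against 6.25, 3.67 and 9.65 CPM in sibling libraries. sesn2, a sestrin that restrains mTORC1, had 107, 18.9 and 97.9 CPM in tars-/- libraries, against 11.4, 6.87 and 10.2 CPM in sibling libraries. All 3 were far lower in tars-/- gcn2 MO, at 0.197 of the tars-/- control level for stc2a, 0.244 for bcat1 and 0.177 for sesn2, where atf4a was at 0.820. vldlr, a lipoprotein receptor gene with the smallest ratio of the list, was at 0.975 (0.905 to 1.05) in tars-/- control over sibling control.

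In tars-/- embryos perk MO went with a higher atf5a, at 97.5 CPM in tars-/- perk MO and 64.4 CPM in tars-/- control (1.51-fold, 1.44 to 1.59). The ratio was 1.13 (1.1 to 1.16) for atf5b, 0.955 (0.941 to 0.969) for atf4a and 0.887 (0.873 to 0.902) for atf4b. No copy was at least 2-fold higher, against 0.781% of genes. The median log2 ratio of the 25 Atf4 targets was 0.09 here, beside 0.05 over all genes.

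In sibling embryos gcn2 MO left all 4 copies below the control. The ratio of sibling gcn2 MO to sibling control was 0.701 (0.681 to 0.722) for atf4b, 0.770 (0.679 to 0.871) for atf5a, 0.785 (0.720 to 0.855) for atf5b and 0.878 (0.860 to 0.896) for atf4a. None was 2-fold apart in either direction, against 1.86% of genes.

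The widest morpholino differences were in siblings with perk MO, where all 4 copies were higher. atf5b had 101 CPM in sibling perk MO and 32.4 CPM in sibling control (3.13-fold, 2.93 to 3.34). atf5a had 37.7 CPM in sibling perk MO and 15.9 CPM in sibling control (2.37-fold, 2.15 to 2.62), and atf4b had 620.0 CPM in sibling perk MO and 303 CPM in sibling control (2.05-fold, 2.0 to 2.1). atf4a differed least, with 654 CPM in sibling perk MO and 518 CPM in sibling control (1.26-fold, 1.24 to 1.29). Thus 3 of 4 copies were at least 2-fold higher, against 2.5% of genes.

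The Atf4 target list as a whole did not share that difference. Of its 25 measured genes 1 was at least 2-fold higher in sibling perk MO, ddit3 (2.06-fold, 1.88 to 2.26). The median log2 ratio of the list was 0.10, beside -0.04 over all genes. Sibling perk MO was also the library farthest from its control, and the 3 neural markers summed to 350 CPM in it and 863 CPM in sibling control. The part of that shift in the atf values was not tested. Against the most similar library, tars-/- gcn2 MO, the sibling perk MO levels were lower in each copy, with tars-/- gcn2 MO over sibling perk MO at 1.08 (1.06 to 1.1) for atf4a, 1.28 (1.25 to 1.30) for atf4b, 1.37 (1.27 to 1.48) for atf5a and 1.54 (1.47 to 1.61) for atf5b.

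**Figure D3:**
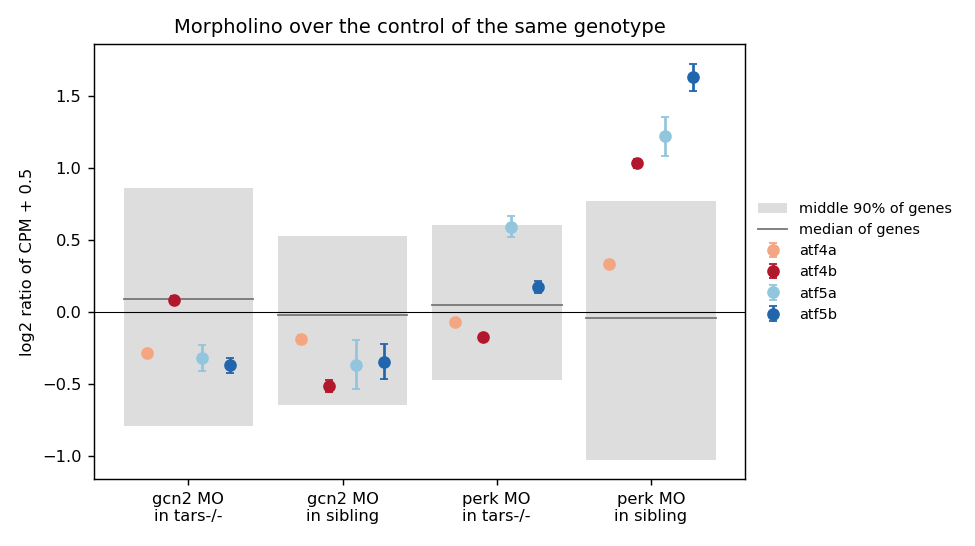
Log2 ratio of CPM + 0.5, morpholino over the uninjected control of the same genotype (vertical axis), for the 4 genes in each comparison (horizontal axis), with bars of 1.96 standard errors of counting, the median of all genes tested (line) and their middle 90% (grey). In siblings with perk MO atf4b, atf5a and atf5b lie above the grey band at 1.03, 1.22 and 1.63, and elsewhere the copies lie within it.

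The perk MO difference was smaller in tars-/- than in sibling embryos for each copy. The log2 ratio to control in tars-/- minus that in siblings was -1.46 ± 0.05 for atf5b, -1.21 ± 0.02 for atf4b, -0.63 ± 0.08 for atf5a and -0.40 ± 0.02 for atf4a (standard error of counting), where the median of all genes was 0.11. Of the genes tested, 0.662% had a lower value than atf5b and 1.17% a lower value than atf4b. For gcn2 MO the same quantity was 0.60 ± 0.02 for atf4b, and it was -0.10 ± 0.02 for atf4a, 0.05 ± 0.10 for atf5a and -0.02 ± 0.07 for atf5b, beside a median of 0.12. These values depend on the scaling: with TMM that of atf4b was 0.46, that of atf4a -0.24 and that of atf5b -0.16, and that of atf5a turned direction to -0.089. With 1 library per condition these differences of differences are values without a test.

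The copies of a pair did not keep a fixed proportion. By reads, atf4b made up 46.3%, 52.8% and 44.5% of the atf4 pair in tars-/- control, gcn2 MO and perk MO, against 36.9%, 31.8% and 48.7% in sibling control, gcn2 MO and perk MO. Because atf4b is the shorter gene, its share per length was larger, at 57.1%, 63.3% and 55.3% of the pair's FPKM in the tars-/- libraries, against 47.4%, 41.9% and 59.4% in the sibling libraries. Per length, then, atf4b was the more abundant copy in all 3 tars-/- libraries and in sibling perk MO, and atf4a was the more abundant copy in sibling control and sibling gcn2 MO. The widest 95% interval of these FPKM shares ran from 41.2% to 42.5%, in sibling gcn2 MO.

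In the atf5 pair atf5b was the more abundant copy in every library. It made up 75.8%, 75.1% and 70.0% of the pair's reads in tars-/- control, gcn2 MO and perk MO, against 67.1%, 67.5% and 72.9% in sibling control, gcn2 MO and perk MO. Per length its shares were 71.0%, 70.3% and 64.7% in the tars-/- libraries, against 61.5%, 62.0% and 67.8% in the sibling libraries. In both gene pairs the share of the b copy was higher in tars-/- than in siblings in the control and gcn2 MO libraries, and lower in tars-/- in the perk MO libraries. A share within a library does not depend on how libraries are scaled.

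**Figure D4:**
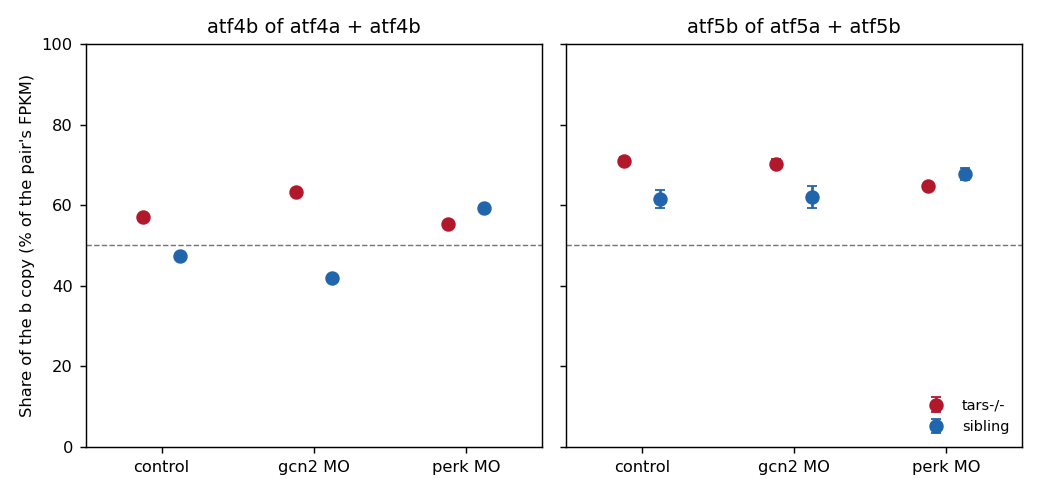
Share of the b copy in the summed FPKM of its pair (vertical axis, percent, from 0) in tars-/- (red) and sibling (blue) libraries under each injection state, with 95% intervals of counting error and a dashed line at equal shares. The atf4b share lies below the line only in sibling control (47.4%) and sibling gcn2 MO (41.9%), and the atf5b share lies above it everywhere, from 61.5% to 71.0%.

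Summed over its 2 copies, atf4 had 658, 631 and 603 FPKM in tars-/- control, gcn2 MO and perk MO, against 322, 256 and 527 FPKM in the sibling libraries. The atf5 sum was 95.2, 74.5 and 118 FPKM in the tars-/- libraries, against 17.7, 13.8 and 50.2 FPKM in the sibling libraries. The atf4 sum was therefore 6.91, 8.47 and 5.10 times the atf5 sum in tars-/- libraries, against 18.2, 18.6 and 10.5 times in sibling libraries. The atf4 sum in tars-/- embryos changed little between injection states, while its makeup moved toward atf4b with gcn2 MO.

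How far the copies of a pair part was set beside all zebrafish genes whose symbols differ only in a final a and b. Of these, 2075 pairs had a mean of at least 1 CPM in both genes, atf4 and atf5 included. Pairs were taken by symbol alone, cebpa with cebpb among them, so not all are duplicates of 1 gene. In tars-/- control over sibling control, the log2 ratio of the b copy minus that of the a copy was 0.56 ± 0.02 for atf4 and 0.63 ± 0.08 for atf5 (standard error of counting). Of all pairs, 14% parted at least as far as atf4 and 10.9% as far as atf5, and among the 986 pairs with at least 10 CPM in both genes 7.61% and 5.78% did. In the gcn2 MO libraries the atf4 copies parted by 1.26 ± 0.02, which 2.70% of pairs matched (1.62% at 10 CPM), and the atf5 copies by 0.56 ± 0.09, which 22.5% matched. With perk MO the differences were -0.24 ± 0.02 and -0.20 ± 0.06, smaller than in most pairs.

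Among the morpholino comparisons, the atf4 copies parted most in sibling perk MO over sibling control, by 0.70 ± 0.02, which 23.5% of pairs reached. In that comparison the atf5 copies parted by 0.41 ± 0.08, which 46.4% of pairs reached. With gcn2 MO the atf5 copies stayed together, at -0.05 ± 0.05 in tars-/- embryos and 0.02 ± 0.11 in siblings, and both 95% intervals include 0. The atf4 copies parted by 0.37 ± 0.02 in tars-/- embryos and by -0.32 ± 0.03 in siblings with the same morpholino. With perk MO in tars-/- embryos the difference was -0.11 ± 0.02 for atf4 and -0.42 ± 0.04 for atf5. For atf5 this was about the same size as in siblings with the opposite sign, and 27.1% of pairs reached it.

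Pairs in which both members reached a 2-fold higher level in tars-/- control over sibling control were rare, at 0.0964% (2 of 2075), and atf5 was 1 of them. The other, farsa and farsb, encodes the subunits of phenylalanyl-tRNA synthetase, which are not duplicates of 1 gene. Pairs with a single member at least 2-fold higher made up 2.22% (46 of 2075), with atf4 among them through atf4b. Both atf5 copies were also at least 2-fold higher in tars-/- gcn2 MO over sibling gcn2 MO, as in 0.145% of pairs, and in tars-/- perk MO over sibling perk MO, as in 0.53%. In sibling perk MO over sibling control they were 1 of 4 such pairs (0.193%), and with TMM 1 of 7.

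**Figure D5:**
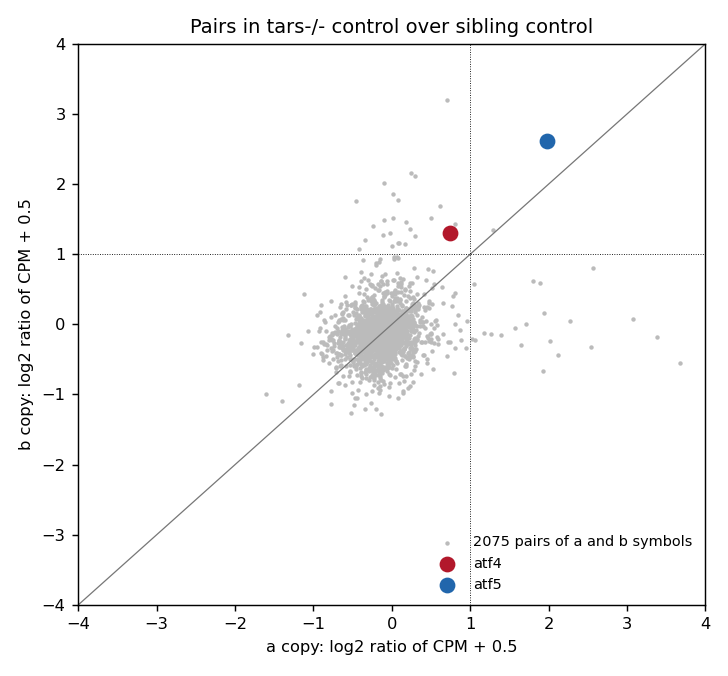
Log2 ratio of CPM + 0.5, tars-/- control over sibling control, of the a copy (horizontal axis) and the b copy (vertical axis) for the 2075 pairs of symbols ending in a and b (grey), with atf4 in red and atf5 in blue. Solid line, equal ratios. Dotted lines, 2-fold. Both gene pairs lie above the solid line, atf5 at 1.98 and 2.62 in the quadrant where both copies are at least 2-fold higher, and atf4 at 0.74 and 1.30 beside it.

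The genes whose levels moved most like each copy were ranked by the distance between log2 profiles centred on their mean over the 6 libraries, among the 10585 genes that averaged 10 CPM or more. This likeness is a description over 6 libraries and rests on the measure: ranked by Pearson correlation, 1 of the 3 genes named for atf4b and 0 of those named for atf4a, atf5a and atf5b were among the first 3. For atf5b the closest of these genes was atf5a (distance 0.61 on the log2 scale), followed by brf1a (0.85), for a subunit of an RNA polymerase III initiation factor, and plat (0.98), for tissue plasminogen activator. For atf5a the closest were plat (0.56), atf5b (0.61) and mtr (0.73), for methionine synthase.

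By this distance the atf4 copies lay farther from each other (1.04) than the atf5 copies (0.61), and their rank depended on which copy was the reference. The distance also counts how widely a gene varies, and atf4a varied less than atf4b. The Pearson correlation between the atf4 copies was 0.925. For atf4b the nearest genes were riok3 (0.27), for an atypical protein kinase, arhgef1b (0.41) and yrdc (0.49), for an enzyme that modifies tRNA, and atf4a ranked 49th. For atf4a they were creb3l3l (0.22), for another factor of the CREB family, hmgcrb (0.23), for the rate-limiting enzyme of cholesterol synthesis, and chchd2 (0.23), for a mitochondrial protein, and atf4b ranked 6147th. The riok3 levels were 91.7, 106 and 101 CPM in tars-/- control, gcn2 MO and perk MO, against 40.9, 32.1 and 84.2 CPM in the sibling libraries, which is a similar pattern to atf4b.

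Upstream of the copies are the genes for the eIF2alpha kinases, the eIF2alpha subunit and its phosphatase. In the control pair they showed smaller differences than atf4b and the atf5 copies. Of 8 listed genes, 7 were matched by symbol and eif2ak4, the gene for Gcn2, was not analysed here. None of the 7 reached a 2-fold higher level in tars-/- control over sibling control, against 1.11% of all genes, and their median log2 ratio was 0.45. eif2ak3, the gene for Perk, had 39.4, 39.6 and 46.9 CPM in tars-/- control, gcn2 MO and perk MO, against 45.0, 45.6 and 37.5 CPM in the sibling libraries. A morpholino need not lower the transcript it targets, so this level is no check of the knockdown.

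The other members of that list were spread on both sides. eif2ak1, for the heme-regulated kinase Hri, had 38.6 CPM in tars-/- control and 20.7 CPM in sibling control, and eif2ak2, for Pkr, stayed between 1.1 and 3.01 CPM in all libraries. ppp1r15a, for the inducible phosphatase subunit, had 53.3 CPM in tars-/- control and 30.3 CPM in sibling control, and ppp1r15b, for the constitutive subunit, had 7.05 CPM in tars-/- control and 5.03 CPM in sibling control. The eIF2alpha genes eif2s1b and eif2s1a had ratios of 1.66 (1.60 to 1.71) and 0.938 (0.879 to 1.00) in tars-/- control over sibling control. Like atf4, they are a pair in which the b copy had the larger ratio.

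Atf4 and Atf5 bind DNA as dimers with other bZIP proteins, and 4 of 11 listed partners reached a 2-fold higher level in tars-/- control over sibling control, with a median log2 ratio of 0.56, beside 1.11% of all genes and a median of -0.11. cebpg, a C/EBP partner of Atf4, had the largest ratio at 3.50 (3.34 to 3.67), followed by ddit3, for the stress factor Chop, at 3.35 (3.09 to 3.64) and jdp2b, for a repressor of the Jun family, at 3.01 (2.59 to 3.51). ddit3, like atf3 below, is also on the target list. jun had the smallest, at 1.06 (1.02 to 1.1). Of the 14 measured genes of 16 listed for other CREB/ATF factors, atf3 alone was at least 2-fold higher, at 5.79 (5.26 to 6.39), with creb3l3b, for a factor anchored in the endoplasmic reticulum, next at 1.53 (1.22 to 1.93) and atf6 at 1.36 (1.28 to 1.44). Their median log2 ratio was 0.04 and the lowest was atf7ip at 0.758 (0.735 to 0.782). Within the family the ratio of atf5b in this comparison, 6.22 (5.86 to 6.61), was above that of every listed gene. That of atf3 came next, and their intervals overlapped. Between the gcn2 MO libraries atf5b was again above atf3 (6.14 and 3.48). Between the perk MO libraries atf3 was above atf5b (2.83 and 2.24).

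Of 5 genes listed for the breakdown of Atf4 protein, 3 were measured. trib3, for a pseudokinase that binds Atf4 and is also on the target list, was at 3.63 (3.47 to 3.8) in tars-/- control over sibling control. fbxw11b, for a ubiquitin ligase subunit, was at 0.920 (0.871 to 0.971), and egln3, for a prolyl hydroxylase, was at 0.638 (0.485 to 0.836) with at most 4.45 CPM in any library. The median log2 ratio of the 3 was -0.12.

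Of 11 genes listed as Atf5 targets or mitochondrial stress proteins, 9 were measured and 2 reached a 2-fold higher level in tars-/- control over sibling control, with a median log2 ratio of 0.55, beside 1.11% of all genes and a median of -0.11. The protease gene lonp1 had 161, 79.3 and 208 CPM in tars-/- control, gcn2 MO and perk MO, against 52.6, 42.2 and 68.5 CPM in the sibling libraries. yme1l1a, for a protease of the inner membrane, was at 2.42 (2.26 to 2.60) and hspd1, for the chaperonin Hsp60, at 1.54 (1.5 to 1.58) in the control pair, and clpp had the smallest ratio at 0.846 (0.784 to 0.913). In sibling perk MO over sibling control, where both atf5 copies were at least 2-fold higher, all 9 had a log2 ratio above 0, with a median of 0.37 and a highest value of 0.52, and none reached 2-fold, beside 2.5% of all genes and a median of -0.04.

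The genes that lie beside the copies were read as well. In the RefSeq annotation of GRCz12tu, a later assembly than the one used for counting, atf5a lies near phldb1a and arcn1a and atf5b near phldb1b and arcn1b, so the neighbours are duplicated with them. In tars-/- control over sibling control, phldb1a was at 0.804 (0.742 to 0.870), phldb1b at 0.717 (0.660 to 0.778), arcn1a at 0.973 (0.926 to 1.02) and arcn1b at 0.964 (0.911 to 1.02). Among all 10 neighbours read, chosen once the annotation had been seen, log2 ratios ran from -0.51 for zgc:113279 beside atf5b to 0.97 for si:dkey-110g7.8 beside atf4b. That gene was higher in tars-/- like atf4b, with 14.6 CPM in tars-/- control and 7.18 CPM in sibling control (2.03-fold, 1.75 to 2.36). Unlike atf4b, it was at 2.76 (2.39 to 3.19) in tars-/- perk MO over sibling perk MO and at 1.15 (0.961 to 1.38) in tars-/- gcn2 MO over sibling gcn2 MO. In the same annotation atf5b lies within the span of another gene, LOC407643. Whether the counting used strand, and how reads that match both copies of a pair were treated, are not given in the sources used here, so such reads could move the levels of either gene.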

How the data were processed

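RNA of whole zebrafish embryos was sequenced as 6 libraries, 1 for each of 6 conditions. Per the study's methods and the submitters' processing notes, HISAT2 2.0.5 served the authors for alignment to GRCz10 (SAMtools 1.7 is also named), and they counted reads per gene of Ensembl release 91 with HTSeq. The deposited tables hold raw counts, gene lengths and FPKM. Recomputed from count, length and library total, the deposited FPKM values came out within a relative deviation of 5.03e-06. Aligned reads were not analysed here.

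CPM were computed from the library totals (29949451 to 47516784), and log2 ratios with a pseudocount of 0.5 CPM over the 19194 genes averaging 1 CPM or more. Intervals are exact (Poisson for levels, Clopper-Pearson for ratios and shares, scipy 1.17.1). PCR reads are not independent molecules, so intervals cover counting error only. An additive fit of genotype and injection state over the 6 libraries (edgeR 4.0.16 quasi-likelihood, with DESeq2 as an alternative) was added after seeing the data. Both the ratios and the additive fit were tested on simulated data, the ratios with counting error only. The simulated genotype differences did not depend on the injection state, so these tests do not cover such a dependence in the real libraries. Alternatives were TMM (edgeR 4.0.16) and DESeq2 1.42.0 size factors, totals without the 20 most abundant genes, other pseudocounts and minimums, FPKM ratios, FPKM shares in place of read shares, and Pearson correlation for likeness.

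The members and lists were chosen with earlier results of these data known. All 4 members are named, with the 3 genes most like each. The kinases and phosphatase subunits are named, and from every other list the 3 largest and the smallest ratio between the control libraries. Planned comparisons of promoters and protein sequences were not analysed here, nor were eif2ak4, btrc, fbxw11a, pycr1, clpx, ubl5 and atf6b, which no symbol matched as written. The copies pycr1a and pycr1b were counted and are among the pairs of symbols, but they were not on the Atf4 target list.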

Additional observations from a re-analysis of the deposited data

Results flagged for a closer look

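The response of atf4b to perk MO had opposite directions in the 2 genotypes, with a log2 ratio to control of -0.17 in tars-/- embryos and 1.03 in sibling embryos. atf4a did likewise over a narrower range, with -0.067 in tars-/- embryos and 0.34 in sibling embryos. For gcn2 MO, atf4b had a log2 ratio of 0.088 in tars-/- embryos and -0.51 in sibling embryos. That last pair of directions rests on library scaling, since with TMM the tars-/- value was -0.023. Each condition had 1 library, so none of these differences was tested.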

How the results depend on the processing

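The additive fit of genotype and injection state was chosen after seeing the data. For its genotype term DESeq2 gave 1.14 for atf4b, 1.85 for atf5a and 2.18 for atf5b, now past the threshold, and leaving out each pair gave 0.749 to 1.65, 1.72 to 2.1 and 1.88 to 2.68. It called 0 genes with edgeR and 191 with DESeq2, and 0 to 285 without a pair. For gcn2 MO and perk MO DESeq2 called 87 and 91 genes, and edgeR 0. Other pseudocounts, FPKM ratios and other minimums for the share of genes past 2-fold moved no value beyond its counting interval or by over 1.5 times. TMM and DESeq2 size factors (values in that order) moved most, all by about the same step within a comparison. In tars-/- control over sibling control they gave 0.86 and 0.85 for atf4a, 1.42 and 1.41 for atf4b, and 2.74 and 2.73 for atf5b, and totals without the 20 most abundant genes gave 0.77 for atf4a. In tars-/- gcn2 MO over control they gave -0.40 and -0.39 for atf4a, -0.43 and -0.42 for atf5a, -0.48 and -0.47 for atf5b, and for atf4b a turned direction, -0.023 and -0.019. In tars-/- perk MO over control they gave -0.12 and -0.13 for atf4a, -0.23 and -0.23 for atf4b, and 0.12 and 0.12 for atf5b. In sibling perk MO over control they gave 0.38 and 0.39 for atf4a, and 1.08 and 1.08 for atf4b. The genotype difference in the gcn2 MO response became -0.24 and -0.23 for atf4a, 0.46 and 0.47 for atf4b, and -0.16 with TMM for atf5b, and for atf5a, within counting error of 0 at first, it turned to -0.089 and -0.079. For perk MO it became -0.50 and -0.51 for atf4a, -1.31 and -1.32 for atf4b, and -1.57 with DESeq2 for atf5b. In sibling perk MO over control TMM gave 7 pairs with both copies 2-fold higher, in place of 4, an alternative chosen after seeing the data.

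FPKM in place of reads gave an atf4b share of 57.1%, 63.3% and 55.3% in tars-/- control, gcn2 MO and perk MO, against 47.4%, 41.9% and 59.4% in sibling control, gcn2 MO and perk MO. For atf5b it gave 71.0%, 70.3% and 64.7% in the tars-/- libraries, against 61.5%, 62.0% and 67.8% in the sibling libraries. This follows from the lengths, and the more abundant atf4 copy depends on it in tars-/- control, tars-/- perk MO and sibling perk MO. Pairs with at least 10 CPM gave 7.61%, 5.78% and 1.62% in the genotype comparisons named above, and 17.3% for atf5 in tars-/- perk MO over control. Of the 3 genes most like each copy, Pearson correlation kept 1 for atf4b and 0 for atf4a, atf5a and atf5b. The median of the 3 breakdown genes in sibling perk MO over control was -0.21 with TMM. Depth did not limit the atf4 values (at least 7508 reads), and atf5a, with 433 reads in sibling gcn2 MO, had the widest intervals.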
